A study of Mus musculus with 4 samples.

Results

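Chromatin open in both wild-type (WT) libraries of mouse bone marrow-derived macrophages (BMDMs) was described from the 2 WT peak lists alone. Overlapping peaks, with 1 bp in common as the minimum, were joined across the libraries into regions, and a region was kept if it lay on an autosome and held a peak from both libraries. This gave 53341 regions out of 63435 autosomal regions with a peak in either library, or 84.1%. The series holds 4 ATAC-seq libraries, 2 from WT and 2 from H3.3 conditional knockout BMDMs, and the knockout lists were not used. The WT mice were C57BL/6 animals homozygous for floxed alleles of both histone H3.3 genes (H3f3a fl/fl and H3f3b fl/fl) that carried no LysM-Cre, so that the genes were intact. Mice of both sexes aged 8 to 10 weeks were used in the study, and how many gave cells to each library was not given in the sources used here. Bone marrow cells were cultured for 6 to 8 days in medium with L929 conditioned medium, which supplies the growth factor that drives macrophage differentiation. No stimulus is named for these samples, so they are taken as resting cells. The libraries are called replicates 1 and 2 after their labels, which name them as biological replicates.

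ATAC-seq uses the Tn5 transposase, which cuts and tags DNA where no nucleosome protects it, so sequenced fragments pile up at active promoters, enhancers and insulators. In macrophages the pioneer factor PU.1, encoded by Spi1, opens enhancers together with C/EBP, AP-1 and RUNX proteins, whereas broadly expressed factors such as SP/KLF, NRF1 and YY1 bind at the GC-rich promoters of housekeeping genes. CTCF binds insulator sites that shape chromosome loops and that are shared by most cell types. The strength of a peak is given below as the percentile of its area among all peaks of its own list, since areas themselves depend on sequencing depth, which is unknown here. In a bulk library, a site open in fewer cells and a site less open in every cell cannot be told apart.

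The reference sequence of the build mm10 (plus strand) is shown for 201 bases around the summits of 6 regions that carry the patterns described below, 5 at marker genes and 1 in an intron, 81.8 kb from the nearest protein-coding TSS. Capitals mark matches to PU.1 (GAGGAAGT), C/EBP (TTGCNNAA), AP-1 (TGAGTCA or TGACTCA), RUNX (AACCACA) or, in the last sequence only, CTCF, all read on both strands. All 14 motifs of the search, among them SP/KLF (GGGCGGG) and ETS (CCGGAAGT), were looked for in each window. No match beyond those in capitals was found. A match describes the letters and is not evidence of binding.
Spi1 upstream, chr2:91082942-91083142, C/EBP at the summit: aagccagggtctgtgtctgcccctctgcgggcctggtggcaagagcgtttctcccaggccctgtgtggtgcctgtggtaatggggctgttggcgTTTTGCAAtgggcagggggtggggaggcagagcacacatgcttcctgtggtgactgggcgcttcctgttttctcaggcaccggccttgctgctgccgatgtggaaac
Adgre1 promoter, chr17:57358509-57358709, C/EBP: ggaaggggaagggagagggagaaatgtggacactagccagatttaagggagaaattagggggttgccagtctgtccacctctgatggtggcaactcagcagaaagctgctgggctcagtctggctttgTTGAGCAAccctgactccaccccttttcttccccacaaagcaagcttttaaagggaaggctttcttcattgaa
Adgre1 intron 1, chr17:57359945-57360145, PU.1: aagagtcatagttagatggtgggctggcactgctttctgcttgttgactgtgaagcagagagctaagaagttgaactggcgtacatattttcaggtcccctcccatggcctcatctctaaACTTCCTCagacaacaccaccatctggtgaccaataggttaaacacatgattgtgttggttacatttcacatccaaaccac
Itgam intron 2, chr7:128065627-128065827, PU.1: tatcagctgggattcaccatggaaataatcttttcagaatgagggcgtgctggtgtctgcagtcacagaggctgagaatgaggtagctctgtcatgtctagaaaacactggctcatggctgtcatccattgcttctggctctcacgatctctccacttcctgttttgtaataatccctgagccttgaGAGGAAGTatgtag
Itgam intron 12, chr7:128089260-128089460, PU.1, AP-1 and C/EBP: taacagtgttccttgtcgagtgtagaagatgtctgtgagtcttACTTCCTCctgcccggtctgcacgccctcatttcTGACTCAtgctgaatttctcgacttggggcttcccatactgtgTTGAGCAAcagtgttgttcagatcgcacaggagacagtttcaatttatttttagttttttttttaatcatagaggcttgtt
Distal intronic region, chr3:152477791-152477991, CTCF: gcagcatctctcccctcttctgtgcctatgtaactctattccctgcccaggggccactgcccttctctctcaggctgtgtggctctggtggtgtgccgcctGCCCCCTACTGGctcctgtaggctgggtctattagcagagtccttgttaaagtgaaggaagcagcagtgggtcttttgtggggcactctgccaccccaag

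Open chromatin was nearly the same in both libraries for all but the weakest sites. Replicate 1 had 55742 peaks and replicate 2 had 64939 peaks, of which 54382 and 63235 were autosomal. Of these autosomal peaks, 99.1% in replicate 1 and 84.8% in replicate 2 lay in a region open in both libraries. Peaks found in 1 library alone were weak and narrow. Their median percentile was 4.80 in replicate 1 and 9.40 in replicate 2, their median width was 258.5 bp and 238 bp, and none lay above percentile 90 of its list. In replicate 2 only 19.5% of the peaks in the lowest 10 percentiles had a partner in replicate 1, against 82.4% between percentiles 20 and 30 and 99.6% between 40 and 50. In replicate 1 the share was already 93.1% in the lowest 10 percentiles.

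Within the shared regions both the position and the rank of the peaks were close. The bases covered by both lists made up 0.815 of the bases covered by either (Jaccard index). Summits of the top peaks lay a median of 7 bp apart, and 97.1% lay within 100 bp of each other. Across the 53341 regions the percentiles had a Spearman correlation of 0.977 and the peak widths 0.928, given as descriptions because all regions share the same 2 libraries. The percentile differed by a median of 5.42 points, and it was higher in replicate 2 by a median of 5.13 points, where it was counted against a longer list that held more weak peaks. In 98.5% of regions each library had exactly 1 peak.

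**Figure D1:**
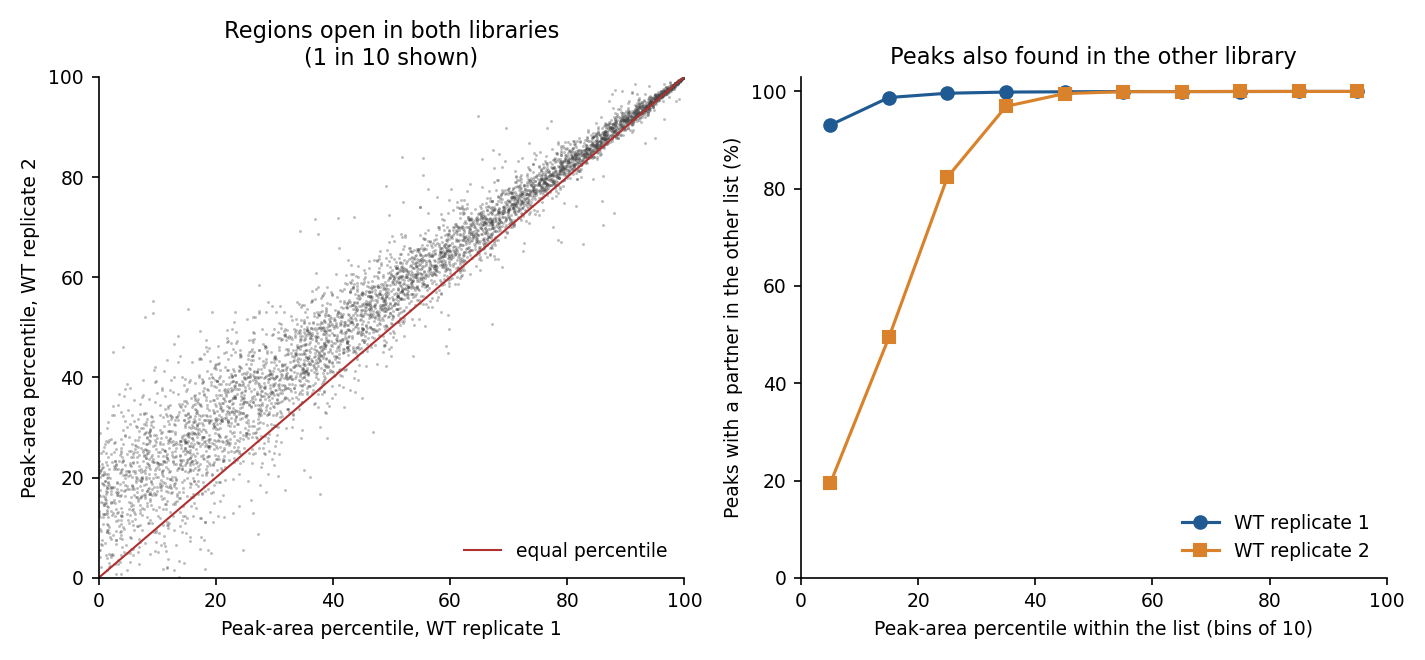
Left, percentile of the peak area in WT replicate 1 (x) and replicate 2 (y) for 1 in 10 of the regions open in both libraries, with the line of equal percentiles. Right, share of autosomal peaks of each list (y, %) that lay in a region open in both libraries, by bins of 10 percentiles of peak area (x). Points lie close to and mostly above the line, and the right panel shows that the peaks without a partner were the weak peaks of replicate 2.

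Most open regions lay away from promoters, but promoters had the highest share relative to their share of the genome, and the highest median strength and width of the 4 classes. By the centre of the region, 9608 regions (18.0%) were in promoters, defined as 1000 bp upstream to 100 bp downstream of a GENCODE transcription start site (TSS). Another 3752 (7.03%) were exonic, 24779 (46.5%) intronic and 15202 (28.5%) intergenic. Promoters hold 2.54% of autosomal bases, so their share among regions was 7.10 times that of the genome, whereas intergenic DNA holds 51.6% of bases and its share was 0.552 times. The shares of single libraries were close to these, at 18.4% and 16.4% promoter peaks in replicates 1 and 2. Among the exonic regions 36.3% were centred in coding sequence, 24.1% in 5′ UTRs, 19.6% in 3′ UTRs and 20.0% in exons of genes that are not protein-coding, and 41.8% were in the first exon of a coding gene.

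Promoter regions were wide, strong and GC-rich. Their median width was 839 bp, against 656.5 bp for exonic, 453 bp for intronic and 441 bp for intergenic regions. Median percentiles followed the same order, at 79.3, 64.5, 48.2 and 47.1. The GC content of the 201 bases at the summit was 61.7% at promoters and 47.8% in intergenic regions (medians). The promoter share grew steeply with strength in each library by itself. In replicate 1 it was 7.16% of the peaks up to percentile 25 and 39.4% of those above 75, and in replicate 2 it was 6.72% and 36.2%. Of the 5843 regions whose mean percentile was above 90, 49.5% were promoters.

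**Figure D2:**
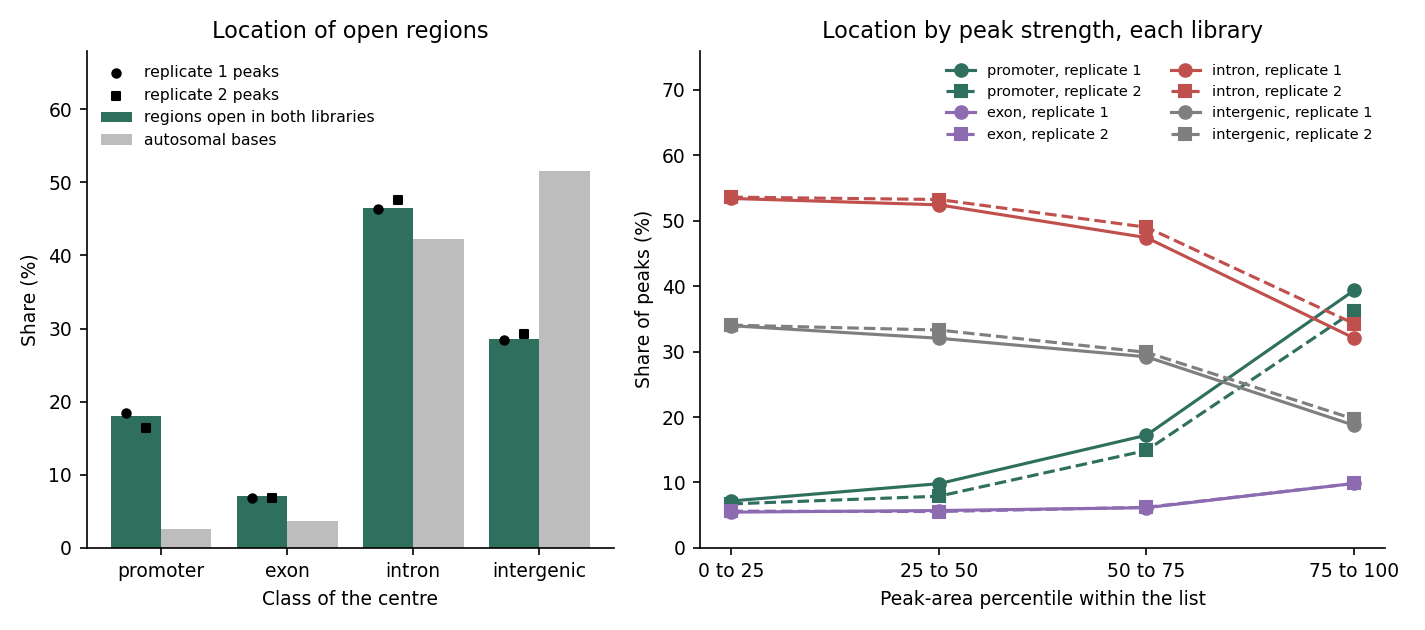
Left, share (%) of the regions open in both libraries and of autosomal bases in each class, with dots for the peaks of each library by itself. Right, share (%) of the peaks of each library in each class, by percentile of peak area. The promoter share is above the genome's in both libraries and passes 36% among the strongest peaks, while the intronic and intergenic shares fall.

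Region width spanned a wide range. It was 164 bp at the narrowest, 508 bp at the median, 2018 bp at the 99th percentile and 19446 bp at the widest, and together the regions covered 32.8 Mb or 1.33% of the autosomes. Only 559 regions were 2000 bp or wider, and 57.4% of these were promoters, against 4.19% of the 8773 regions under 300 bp. Width and mean percentile had a Spearman correlation of 0.849 over the regions, which is in part built in, since the area of a peak sums over its width. The distance from the centre to the nearest protein-coding TSS had a median of 14.0 kb. Of all regions, 21.5% lay within 1 kb of such a TSS and 11.3% lay more than 100 kb away. Beyond 1 kb the median percentile hardly changed with distance, at 46.6 between 1 and 10 kb and 48.2 beyond 100 kb.

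The 5 macrophage markers all had open regions in or within 10 kb of the gene, as did 72.4% of all autosomal protein-coding genes. The strongest regions, those at the TSS and some with PU.1 matches are given here by value. The mean percentiles of all their regions ran from 4.22 to 99.5 at Spi1, from 16.02 to 99.3 at Csf1r and from 21.9 to 83.5 at Itgam. Spi1, the gene of PU.1 (chromosome 2, 91082390 to 91115756, plus strand), had 8 regions. The strongest was 3182 bp wide (91081870 to 91085051), with percentiles of 99.5 in replicate 1 and 99.6 in replicate 2. Its summit lay 13.1 kb upstream of the start of transcript Spi1-201, and its label above as upstream refers to that transcript. The region covered the annotated start of the gene, with the summit 652 bp inside the gene. It overlapped no promoter window, since these were set at the starts of the annotated transcripts used here. An upstream regulatory element several kilobases 5′ of the promoter is known to control Spi1. This region carried a C/EBP match centred within 3 bp of the summit and no PU.1 match among the 201 bases, as shown above. At the transcript start itself the region (91096415 to 91097540) was weaker, with percentiles of 74.1 and 82.8, and it began 319 bp downstream of the TSS. Spi1 was thus the marker without a region in a promoter window of the transcripts used, although a region covered its annotated gene start.

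Csf1r, the receptor for the growth factor in the medium (chromosome 18, 61100598 to 61132149, plus strand), had 12 regions, the most of the 5 markers. Its strongest region was in intron 1 of transcript Csf1r-202 (61107433 to 61109162, 1730 bp), at percentiles of 99.2 and 99.3 in replicates 1 and 2. The region over the TSS (61105438 to 61107129) was lower, at 73.7 and 85.3. Another strong region of 1680 bp lay in intron 10, at 92.7 in both libraries. In both Spi1 and Csf1r the strongest region was thus not the one at the start of the named transcript, although at Spi1 it covered the annotated gene start.

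Adgre1, which encodes the surface protein F4/80 (chromosome 17, 57358691 to 57483527, plus strand), had 3 regions, 1 at its promoter and 2 in its long body. Its promoter region (57358194 to 57358997) was the strongest, at percentiles of 73.6 and 79.3. The region with a PU.1 match in intron 1 was weaker, at 31.7 and 41.1, and a region in intron 7 stood at 41.9 and 42.6. Itgam, the gene of the integrin CD11b (chromosome 7, 128062640 to 128118491, plus strand), had 8 regions. Its promoter region (128062367 to 128062818) had percentiles of 50.6 and 58.0, and the strongest region was in intron 1 (128063243 to 128063764), at 81.3 and 85.7. The 2 Itgam regions shown above, in introns 2 and 12, carried PU.1 matches and stood at 64.8 and 69.5 and at 70.2 and 73.5.

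Lyz2, which encodes lysozyme (chromosome 10, 117277331 to 117282321, minus strand), had 4 regions within this range, and even the lowest, over the neighbouring gene Lyz1, stood at 88.5 and 89.1 in replicates 1 and 2. The strongest of all marker regions spanned the 3′ end of Lyz2 (117274854 to 117279104, 4251 bp), at 99.98 in both libraries. The region over the promoter and first exon (117279621 to 117282581) was next, at 96.13 and 99.02. Across the markers, the same region was the strongest in both libraries for each of the 5 genes.

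**Figure D3:**
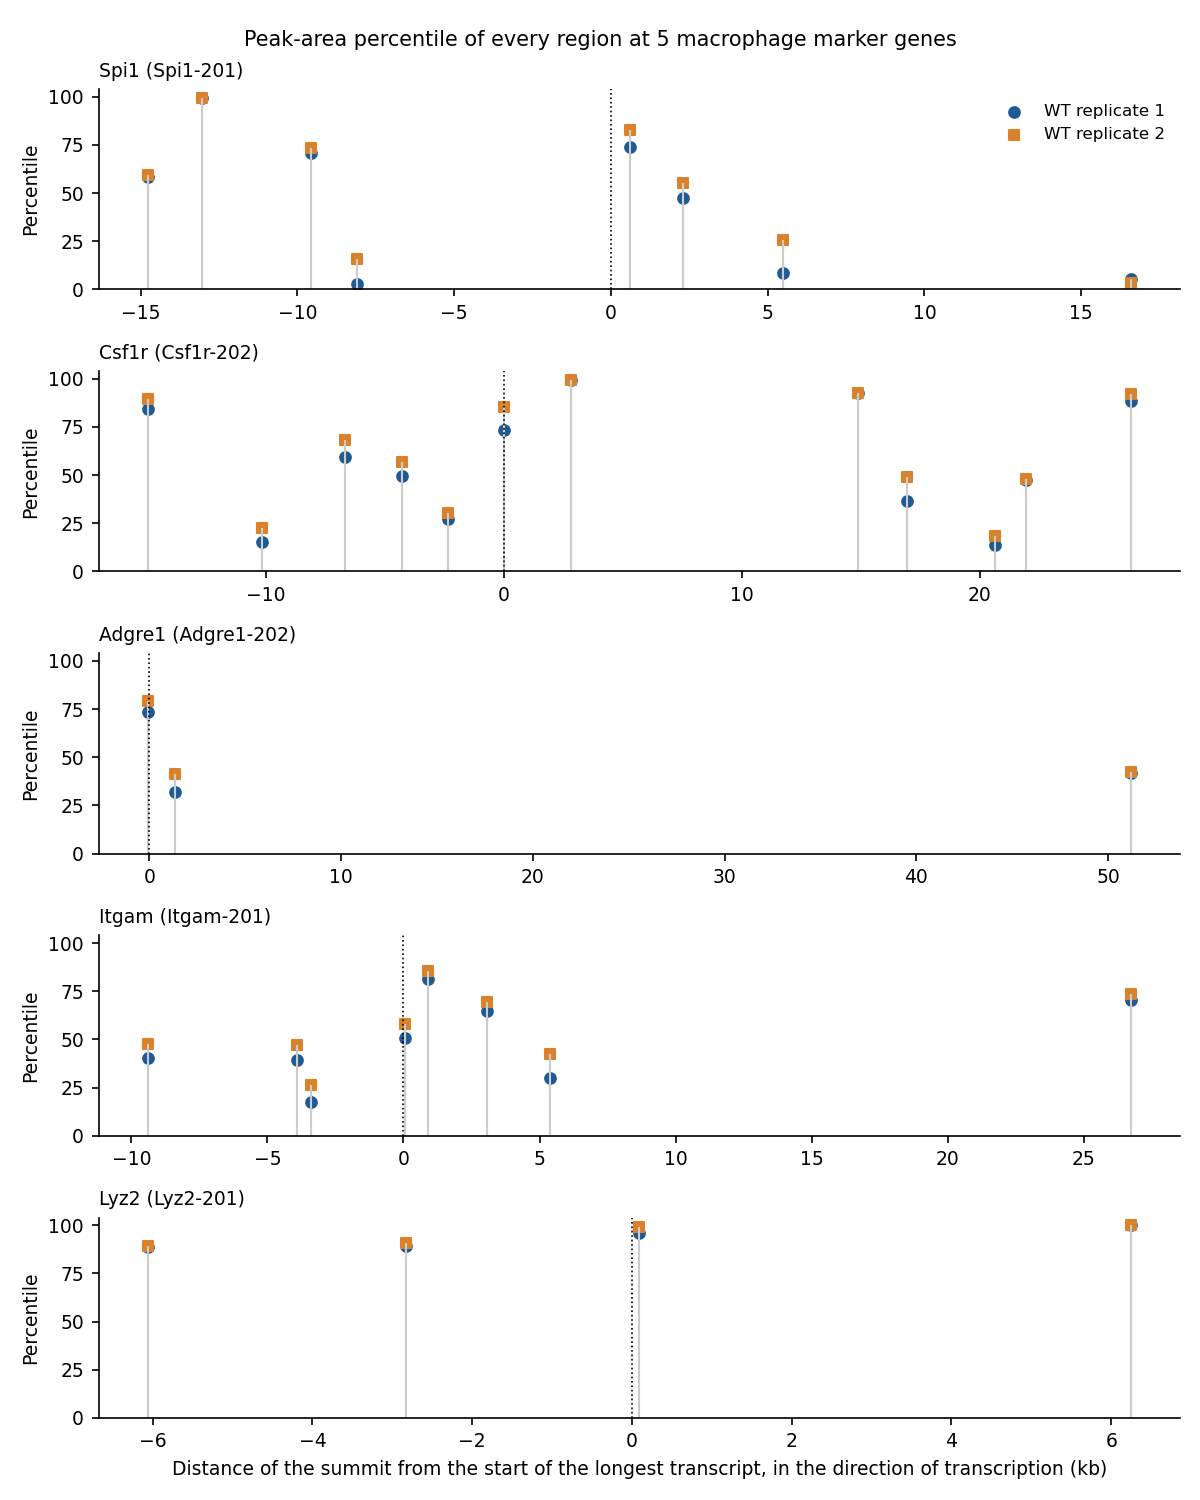
Percentile of the peak area (y) of every region in or within 10 kb of the 5 marker genes, by the distance of its summit from the start of the longest annotated transcript (x, kb). Circles are WT replicate 1, squares WT replicate 2, and the dotted line is the TSS. The highest regions lie upstream of the transcript start at Spi1, in introns at Csf1r and Itgam, at the promoter of Adgre1 and past the 3′ end of Lyz2.

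Most promoters of macrophage genes were open, and few promoters of genes that mark other cell types were. Of the 20807 autosomal protein-coding genes, 11239 had a region in both libraries that overlapped a promoter window, and this background of 54.0% is what each list below is set against. The counts of single libraries were 11229 and 11522 genes. Of 24 genes of the macrophage surface and phagocytosis, 23 had a promoter region. Sirpa, the receptor that reads the signal CD47 (99.5 and 99.3 in replicates 1 and 2), and Csf2ra, the alpha chain of the GM-CSF receptor (99.7 and 99.7), had the strongest. Axl, a receptor for apoptotic cells, had no promoter region, although a region at a mean percentile of 98.1 lay within 10 kb of the gene.

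Where the macrophage surface genes had a promoter region its median percentile was 84.3, against 85.8 over all protein-coding genes with one. All 16 myeloid transcription factors had a promoter region, at a median percentile of 89.5, and 7 of them were above percentile 90. Bhlhe40 and Maf were among the highest, each at 99.7 in replicate 1 and 99.9 in replicate 2, and Nr1h3, the oxysterol receptor LXR alpha, was the lowest at 46.6 and 60.9. Maf is a transcription factor of macrophage differentiation. Of the lysosomal genes, 18 of 18 had a promoter region, at a median of 90.4 (Lamp2 and Gla are on chromosome X and were not counted). Ctsz, which encodes the protease cathepsin Z, stood at 99.98 and 99.99, and Tfeb, a factor that drives lysosomal genes, at 96.9 and 97.7.

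Inflammatory genes that are inducible were divided. Of 16, 11 had a promoter region, at a median percentile of 65.0. Each of the 16 had at least 1 region within 10 kb, as did 72.4% of all autosomal protein-coding genes. The chemokine genes Ccl3 (95.4 and 96.3) and Ccl2 (91.4 and 92.3) had the strongest promoter regions, while Nos2, which encodes inducible nitric oxide synthase, had 1 of only 236 bp at percentiles of 4.51 and 5.07. No promoter region was found in both libraries for Ccl5, Cxcl1, Ifnb1, Il1a and Il1b. Ifnb1, the gene of interferon beta, had a promoter peak in replicate 2 alone. Il1b had 3 regions within 10 kb, the strongest at a mean percentile of 84.0.

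Among lineages other than macrophages the promoter counts fell below the background except in 1 list. Of 10 neutrophil genes 3 had a promoter region, namely S100a8 (76.5 and 78.3), Csf3r (60.7 and 58.9) and Camp (29.1 and 29.5), and neither Ly6g nor S100a9 had any region within 10 kb. T cell genes had 2 of 8 (Gata3 at 92.4 and 92.8, Cd28 at 60.6 and 80.3), B cell genes 1 of 6 (Ms4a1 at 3.56 and 23.5), and erythroid or megakaryocyte genes 2 of 6 (among them Pf4 at 94.2 and 95.9). Cd3e, Cd8a and Pax5 had no region within 10 kb. The dendritic cell list had 3 of 5, with Zbtb46 at 69.0 and 74.1, Flt3 at 24.2 and 37.3 and Siglech at 10.9 and 31.9, while Ccr7 and Xcr1 had no promoter region, although a region at a mean percentile of 98.6 lay within 10 kb of Xcr1. None of 4 mast cell genes, 5 fibroblast genes (Col1a1, Col1a2, Pdgfra, Dcn, Lum) or 6 genes of other tissues had a promoter region. A region within 10 kb was more common, at 72.4% of all autosomal protein-coding genes. Such a region was found for 8 of 10 neutrophil, 5 of 8 T cell and 2 of 6 B cell genes. Erythroid or megakaryocyte genes had 6 of 6, dendritic cell genes 5 of 5, mast cell genes 1 of 4, fibroblast genes 2 of 5 and other tissues 4 of 6.

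Large gene families were as far apart. Of 92 ribosomal protein genes 81 had a promoter region, at a median percentile of 84.9 against the 85.8 over all genes, and of 385 Zfp genes, which encode zinc finger proteins, 301 had one. Of 1128 olfactory receptor genes only 15 did, of 329 vomeronasal receptor genes 3, of 53 keratin genes 2 and of 39 Hox genes 3.

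**Figure D4:**
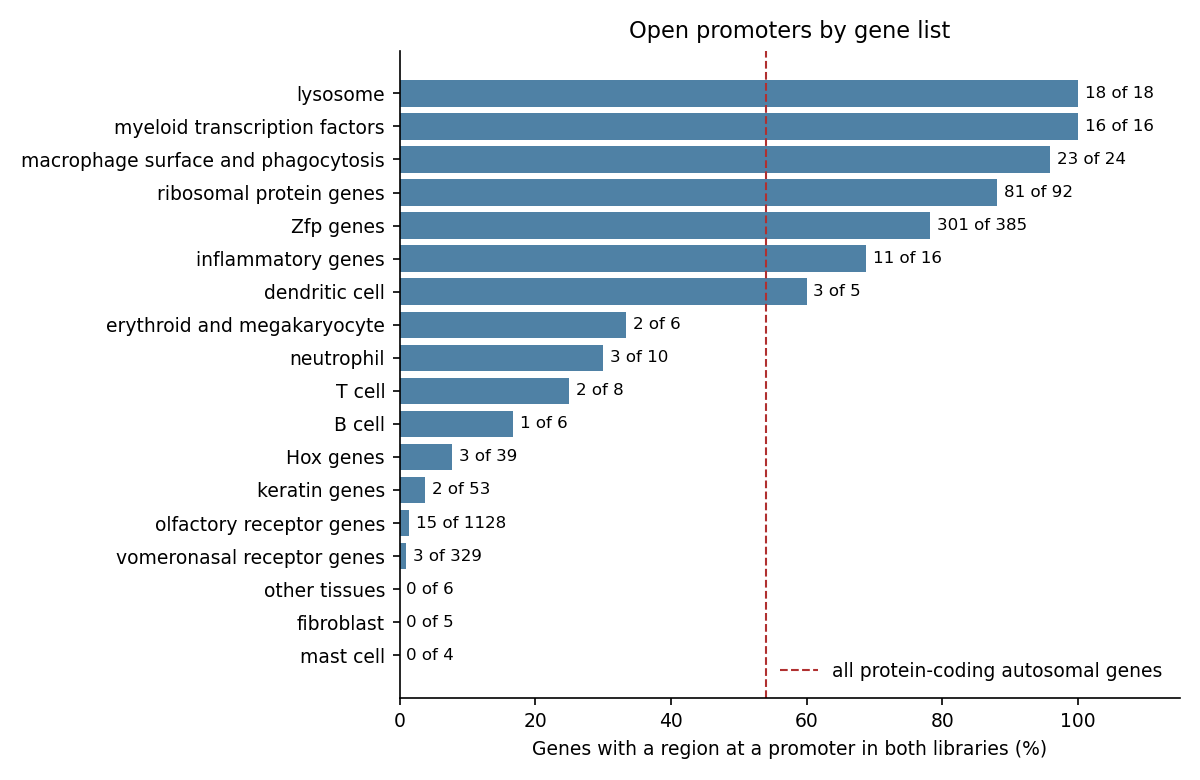
Share (x, %) of the autosomal protein-coding genes of each list (y) with a promoter window that overlapped a region open in both libraries, with the counts at the bars. The dashed line is the 54.0% over all such genes. Lysosomal, myeloid factor and macrophage surface lists lie at 95.8% or above, and the lists of other lineages lie below the line except the dendritic cell list at 60%.

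Most of the 10 strongest and of the 10 widest regions lay over 2 loci. Of the 10 strongest regions 6, which were also among the 10 widest, lay in a row over Sfi1, a gene of a centrosome protein on chromosome 11 (3130709 to 3200086). These 6 regions covered 65.4 kb or 94.3% of that stretch, with widths from 5212 to 19446 bp. The strongest region of both lists was among them (3152109 to 3168798), with an area of 63607 in replicate 1 and 66769.5 in replicate 2, where the median autosomal peak had 660.1 and 681. The other locus was a 5917 bp region on chromosome 17 (39842958 to 39848874) over the gene models Gm26917, Gm42418, CT010467.1 and AY036118, which overlap ribosomal RNA sequence. In all 50 strongest regions, the sequences of 31 bases within 100 bp of the summit had a median count of 1 in the assembled chromosomes. Some of them may occur more often, and the rest of each region was not counted. Whether the cells hold more copies of these loci than the assembly does was not tested, since the peak lists hold no reads.

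The remaining members of the 10 strongest regions overlapped the promoter window of a coding gene. They were at Ppp2r3d, a regulatory subunit of protein phosphatase 2A (chromosome 9, 124422459 to 124426131), at Crlf2, a subunit of the TSLP receptor (chromosome 5, 109556482 to 109559642), and at Ctsz (chromosome 2, 174435913 to 174440367, 4455 bp). The Ctsz region was also the tenth widest. The widest regions further held 7294 bp over Hjurp, the chaperone that loads the centromeric histone CENP-A (chromosome 1, 88258867 to 88266160), and 4751 bp over the promoter window of Alcam, an adhesion molecule (chromosome 16, 52449976 to 52454726).

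Of the 50 strongest regions 27 were centred in a promoter, and 40 overlapped the promoter window of a protein-coding gene. Of the 50 widest 18 were centred in a promoter and 36 overlapped such a window, and 23 regions were in both sets. The shares of 54% and 36% centred in a promoter thus leave out regions that touched a promoter window away from their centre. Without the regions over Sfi1 and on chromosome 17, left out after their values were seen, the shares were 62% and 42%.

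Strong regions far from any protein-coding TSS mostly sat at annotated starts of genes that this annotation does not hold as protein-coding. Of the 5 strongest regions more than 50 kb from any protein-coding TSS, the first 2 were the chromosome 17 region and 1 of the regions over Sfi1. Next came a region at the promoters of Gm6410 and Gm7461 (chromosome 8, 4677079 to 4678980), at 99.95 in both libraries. The fourth, 2787 bp on chromosome 13 (107889615 to 107892401), covered the start of Zswim6, which this annotation holds as a processed transcript without a coding sequence, at 99.92 in replicate 1 and 99.93 in replicate 2. The fifth, 3066 bp on chromosome 14 (115040047 to 115043112), lay at Mir17hg, the host of the miR-17 cluster, at 99.86 and 99.91.

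Regions also gathered in clusters. When gaps of 10000 bp or less were bridged, the 53341 regions formed 26652 groups, 56.2% of which held 1 region and 222 of which held 10 or more. The groups with 10 or more regions held 5.05% of all regions. By covered bases the first 2 clusters were those over Sfi1 (71.8 kb covered) and over Mroh2a, Hjurp and Trpm8 (27.1 kb in 13 regions). Next came a cluster on chromosome 4 (145194071 to 145300811) over Vps13d, Tnfrsf1b and Tnfrsf8. Its 25 regions covered 18.96 kb and were the most in any cluster, and Tnfrsf1b encodes the TNF receptor TNFR2. Another of the 5 largest clusters held 15 replication-dependent histone genes of the Hist1 locus on chromosome 13 (23517897 to 23586191), in 20 regions with a median percentile of 80.2.

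Sequence at the summits differed between promoters and distal regions. PU.1 matches were found within 100 bp of the summit in 11.5% of all regions, against 1.34% of windows of the same length 1000 bp to the right. The share was 13.32% in introns, 13.5% in intergenic regions and 4.62% at promoters. Each library by itself gave 11.4% and 11.3% of peaks. The letters of C/EBP were found in 12.4% of regions and 8.19% of the neighbouring windows, AP-1 in 13.1% and 3.45%, and RUNX in 7.96% and 5.16%. At least 1 of these 4 motifs was present in 45.1% of intergenic and 17.4% of promoter regions, whereas the neighbouring windows had 17.4% and 16.7%.

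At promoters other motifs were more frequent than in intergenic regions, but not all of them were more frequent there than the myeloid ones. C/EBP matched 6.89% of promoter regions. SP/KLF was matched in 38.1% of promoter regions and 3.46% of intergenic ones. Of promoter regions 10.1% matched NF-Y (CCAATCA), 6.71% the ETS letters of housekeeping promoters (CCGGAAGT), 2.39% NRF1 (GCGCATGCG) and 1.83% YY1 (AAGATGGCG). In intergenic regions these 4 shares were 2.41%, 0.678%, 0.191% and 0.230%. Over RefSeq promoter sequences of 300 bases, PU.1 matched 3.66% of the 11943 promoters that overlapped a region and 2.997% of the 19453 that did not. For ETS these shares were 8.94% and 0.884%, and for SP/KLF 47.9% and 12.2%. The 2 sets of promoters also differed in base composition, with a median GC content of 61.7% and 48.7%, and how far this accounts for the motif shares was not tested. The E-box TCACGTGA, which is bound by the MiT/TFE factors of lysosomal genes, was in 1.32% of promoter and 0.309% of intergenic regions.

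Among regions over 1 kb from any TSS, the motifs of myeloid factors and of CTCF ran in opposite directions with peak area. In replicate 1 AP-1 was matched in 12.6% of distal peaks up to percentile 25 and in 19.9% of those above 75, and in replicate 2 in 11.96% and 19.3%. PU.1 went from 11.4% to 15.2% in replicate 1 and from 10.5% to 15.5% in replicate 2. C/EBP and RUNX had smaller differences in the same direction, with RUNX at 8.33% and 10.8% in replicate 1. CTCF fell from 7.10% to 0.683% in replicate 1 and from 8.09% to 0.802% in replicate 2. The difference between the weakest and the strongest distal peaks was larger than the difference between the libraries for each of these 5 motifs. Area sums over the width of a peak, and width and mean percentile had a Spearman correlation of 0.849 over all regions. The motif shares were not repeated with peaks ranked by −log10 p, so the part of width in them was not tested. The distal window with a CTCF match shown above stood at percentiles of 99.6 in both libraries. It was the strongest of its kind over 50 kb from a protein-coding TSS, with chromosome 18 left out of the choice. Its match was centred 6.5 bp from the summit.

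**Figure D5:**
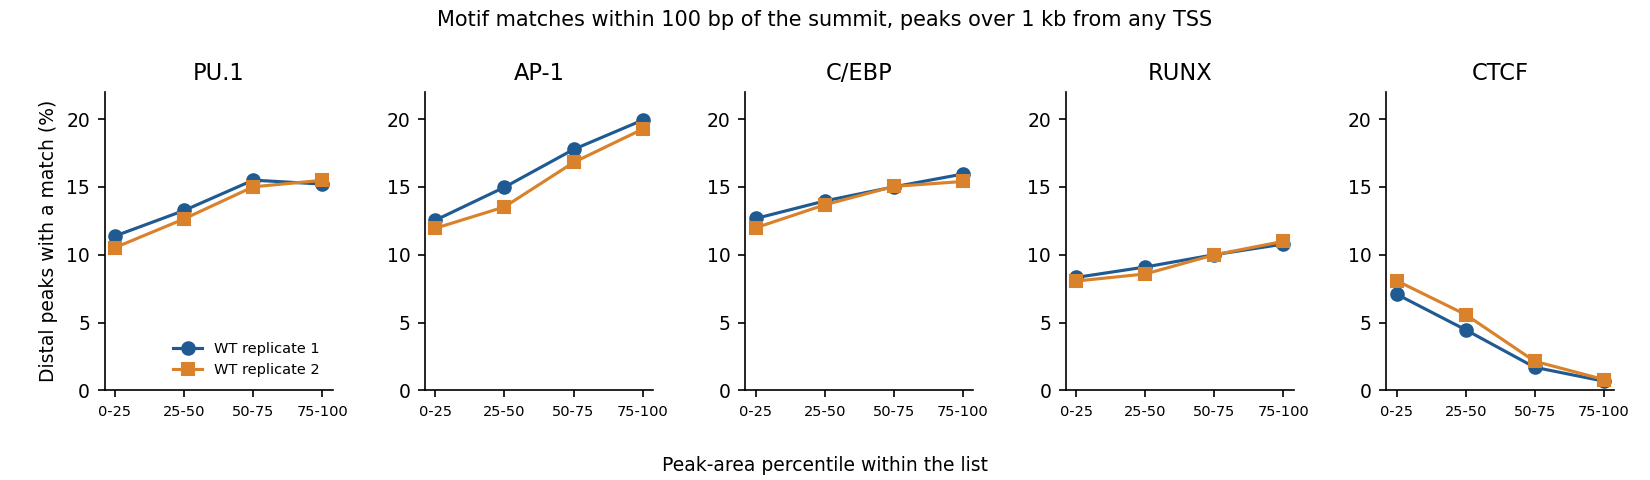
Share (y, %) of peaks over 1 kb from any TSS with a match within 100 bp of the summit for 5 motifs, by percentile of peak area within the list (x), in WT replicate 1 (circles) and replicate 2 (squares). PU.1, AP-1, C/EBP and RUNX are more frequent in the strongest bin than in the weakest. CTCF is less frequent at stronger peaks, with 0.683% and 0.802% in the strongest bin.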

How the data were processed

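ATAC-seq peak lists of the 2 WT libraries were used, grouped by their titles. Per the study's methods and submitters' processing notes, the authors aligned paired reads to mm10 with Bowtie2 2.5.1 and called peaks in each library with Genrich. The deposited signal column is the peak area, the area under the curve of significance, and the deposited −log10 p-value column holds the value at the summit. The deposited score reached its limit of 1000 in 83.2% and 87.2% of peaks, and the q-value column was not filled, so neither was used. Areas were all just above 200 or higher, so weaker sites are absent. Duplicate removal and read-end shifting for Tn5 were not given in the sources used here. Read depth is unknown, and no interval for a single peak is given. The knockout lists were not used, and no test was run, since only 1 group was described.

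Peaks were merged and ranked in Python 3.11.15 (pandas 2.3.3, numpy 2.4.6, scipy 1.17.1). Strength was the mean over the 2 lists of the percentile of the highest peak. Classes came from GENCODE M21 basic, taken in the order promoter, exon, intron, intergenic. Sequences came from RefSeq GRCm38 (pysam 0.24.0, samtools 1.23.1). Exact 31-base copies were counted with numba 0.67.0. The steps were checked on simulated peaks. Genes were named by a rule: the given markers, the 10 strongest, 10 widest and 5 farthest-lying strong regions, 5 clusters, 5 genes with most regions, and list members with the 2 strongest and those without a promoter region. Names outside it were chosen after their values were seen, among them the lowest members of lists. The regions, lists and motifs were chosen with earlier results of these data known. Alternatives were a higher minimum area, lists of equal length, stricter overlap of peaks, other class definitions, another strength measure, chromosome X, a narrower motif window, and each library alone. Coordinates are 1-based. A few genes that the rule names and 1 sequence are not reported here.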

Additional observations from a re-analysis of the deposited data

How the results depend on the processing

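No paired analysis was possible because only 1 group was described. Shares are of regions unless a set of 50 is named. The word "moved" here means by more than the standard deviation between the 2 libraries, or for a count by more than 1.5 times. For the Jaccard index and the Spearman correlation, which have no such standard deviation, a small fixed margin was used.

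With only peaks above the median area of their list, the regions numbered 26953, with 27.6% promoter, 8.40% exon, 40.1% intron and 23.9% intergenic, a median width of 713 bp and 11.3% with PU.1. With lists of equal length the exon share was 7.10% and the Jaccard index 0.840. With 50% reciprocal overlap the exon share was 7.02% and the promoter share of the 50 widest 38%. With summits within 100 bp these were 6.92% and 40%, and the PU.1 share 11.6%.

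Classed at the mean summit, the shares were 21.3% promoter, 4.97% exon and 45.2% intron, with promoters at 72% of the 50 strongest and 50% of the 50 widest. With a promoter window of 2500 bp on both sides the 4 classes had 33.6%, 2.65%, 38.0% and 25.8%, and the sets of 50 had 90% and 76%. With protein-coding genes only the classes had 15.1%, 6.02%, 43.7% and 35.2%, and the sets of 50 had 42% and 32%. Counted only over bases covered by both lists, the median width was 433 bp. Ranked by −log10 p, 72% of the 50 strongest were promoters. With chromosome X the exon share was 7.001%. With a 50 bp motif window the PU.1 share was 8.03%.

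With 1 library alone, promoter shares ran from 16.4% to 18.4%, exon from 6.79% to 6.80%, intron from 46.3% to 47.5%, intergenic from 28.5% to 29.2%, median widths from 428 to 451 bp, PU.1 shares from 11.3% to 11.4%, the promoter share of the 50 strongest from 46% to 50% and of the 50 widest from 38% to 40%. The number of regions ran from 54382 to 63235.

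Chosen after seeing the data, leaving out 9 regions over Sfi1 and on chromosome 17 gave 62% and 42% promoters in the sets of 50. Counting any overlap with a promoter window gave 24.2% of all regions, 90% of the 50 strongest and 76% of the 50 widest. The other 50 values of 102 did not move. The class shares therefore depend on how a promoter is defined more than on the library. Peaks under the caller's limit cannot be seen, so absence from a list does not show closed chromatin.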

Other observations

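Autosomes differed in the density of open regions. Chromosome 11 had 26.8 regions per Mb and chromosome 14 had 17.1, and over the 19 autosomes the density had a Pearson correlation of 0.783 and a Spearman correlation of 0.828 with the density of protein-coding genes, given as a description of these 2 libraries. Chromosome X, left out of the regions above, held 1336 regions with a peak in both libraries, or 7.81 per Mb against 21.7 over the autosomes. It had 5.54 coding genes per Mb, where chromosome 12 had 5.35 with 19.2 regions per Mb and chromosome 18 had 5.66 with 18.9. The part of gene density in the low value on X was not tested.

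Promoters of non-coding genes were less often open than those of coding genes. A region in both libraries overlapped a promoter window of 23.9% of antisense genes, 14.4% of lincRNA genes, 11.4% of miRNA genes and 2.499% of processed pseudogenes. Promoters shared with a coding gene were not separated here. The genes with most regions in the body were Gm20388 (214 regions), Fgfr2 (95), Pde4d (56), Gm37240 (46) and Asap1 (43). The first 2 have annotated spans of 4435 kb and 2961 kb. Asap1, a regulator of the actin cytoskeleton, had 1.45 regions per 10 kb. Zmiz1, named after its value was seen, had the highest density of the 15 genes with most regions, at 1.69 per 10 kb.

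Some wide regions were weak. A region of 4007 bp over the non-coding RNA Neat1 (chromosome 19, 5838492 to 5842498), named after its values were seen, was among the 50 widest but had percentiles of 68.9 and 62.0. Its summits reached −log10 p-values of 3.25 and 3.36 in replicates 1 and 2.

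The strongest region found in replicate 1 alone was a 567 bp peak at the Eps8 promoter (chromosome 6, 137570732 to 137571298), at percentile 70.01, and the next was a 488 bp peak in an intron of Ptpro on the same chromosome (137412970 to 137413457), at 64.0. In replicate 2 the strongest unmatched region was a 413 bp exonic peak on chromosome 17 (78369536 to 78369948), at 62.5, whose nearest coding TSS was that of Fez2, 48341 bp away.

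Summits made up mostly of sequence that occurs more than once in the assembled chromosomes were rare. Summit sequence with more than 1 exact copy was found in 412 regions (0.772%), at a median percentile of 37.6 against 54.1 for all regions, and 101 of these regions had 10 or more copies.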
